A study of Mus musculus with 4 samples.

Results

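The genes described here are 37 type I interferon stimulated genes, chosen by name, with earlier results of these data known. They are antiviral effectors, RNA sensors and regulators, all named on the mouse arrays of the study, and each of their probes was used. They were read by 51 of the 55681 probes, and all 37 genes and all 51 probes passed the filter on dim signal, against 23624 of 34797 genes and 33664 of 55681 probes over the whole array. At the brightest probe of each gene, the spots were well above background on all 4 arrays.

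RNA came from whole ears of 2 mutant and 2 wild-type mice, taken 48 h after the ears had been treated with 2,4-dinitrofluorobenzene (DNFB), which sensitises and inflames skin. The mutants had the genotype K14Cre RelAfl/fl, in which a Cre recombinase under the keratin 14 promoter deletes RelA (p65), a subunit of NF-kB, in basal keratinocytes of epidermis and hair follicles. The wild-type mice were RelAfl/fl, so both groups carried the floxed allele and both received DNFB, while the recombinase was present in the mutants alone and cannot be told apart from the deletion. Fibroblasts, vessels, muscle, cartilage and immune cells of the ear do not use that promoter, and untreated ears were not part of the set. The labels give neither strain, sex nor age. In RNA from a whole ear, fewer cells of a type and less RNA per cell cannot be told apart.

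Type I interferons signal through the receptor IFNAR and the kinases JAK1 and TYK2 to a complex that contains STAT2 and IRF9. This complex binds the interferon stimulated response element (ISRE) in the promoters of its target genes and switches on proteins that sense viral RNA, block its translation or stop viruses from entering and leaving the cell. Keratinocytes and immune cells both use this programme, and interferon gamma, the product of lymphocytes, induces part of it. NF-kB takes part in the induction of interferon beta itself.

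Promoters are shown for Ifit1, Rsad2 and Isg15 because their values were higher in both mutant mice and the window holds the ISRE letters, and for Xaf1 because its probes disagreed. Ddx60 and Ifih1 also met the first rule and are not shown. Chosen in this way, the promoters are examples and do not link the letters to a direction. Each promoter shown is a stretch of 100 bases before the RefSeq transcription start on build GRCm38.p6, in the direction of the gene. Matches to GAAANNGAAA on either strand are in capitals. Overlapping matches run together. The stretches lie at chr19:34640749-34640848 on the plus strand (Ifit1), chr12:26456518-26456617 on the minus strand (Rsad2), chr4:156200836-156200935 on the minus strand (Isg15) and chr11:72301529-72301628 on the plus strand (Xaf1).
Ifit1: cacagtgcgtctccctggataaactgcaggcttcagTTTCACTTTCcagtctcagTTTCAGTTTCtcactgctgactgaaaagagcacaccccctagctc
Rsad2: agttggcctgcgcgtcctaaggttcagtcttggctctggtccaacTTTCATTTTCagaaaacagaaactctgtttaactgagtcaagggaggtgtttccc
Isg15: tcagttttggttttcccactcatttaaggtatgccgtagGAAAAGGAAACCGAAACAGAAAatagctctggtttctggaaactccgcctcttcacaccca
Xaf1: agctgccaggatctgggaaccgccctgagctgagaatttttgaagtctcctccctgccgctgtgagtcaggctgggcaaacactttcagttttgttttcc

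RefSeq promoter windows, from 250 bases before to 50 bases after the start, were at hand for 28 of the 37 genes. The ISRE letters GAAANNGAAA stood on either strand in the window of 13 of these 28 genes (46.4%), against 3.99% of the 27025 genes with a window. The NF-kB consensus site stood in 2 of the 28 (Oasl1 and Bst2), against 5.14% of all genes. These matches describe letters in a window and not the binding of a factor. Of the 11 genes with higher values in both mutants than in both wild types, 7 had a window and 5 of those held the ISRE letters. Of the 23 genes whose groups overlapped, 19 had a window and 8 held them. Both genes with a window among the 3 with lower values in both mutants, Irf7 and Xaf1, had no match. Whether the letters go with the direction was not tested.

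All values below are log2 intensities relative to the 75th percentile of the array, and differences are mutant minus wild type. The arrays came from 1 slide and 1 scan, with 61.2% to 64.3% of spots well above background and 0 saturated spots. The array of mutant mouse 2 stood apart. Across genes it correlated with the other arrays with Pearson's r between 0.9827 and 0.9878, where those correlated among themselves with r between 0.9925 and 0.9931. It had a patch of dark spots at 1 corner, 1422 spots in all, and outside it r with the other arrays lay between 0.9879 and 0.9931. Of the probes described here, the patch touched 1, that of Ifitm3, which has 10 spots on the array. Rela, the deleted gene, stood at 4.59 and 4.72 in mutant mice 1 and 2, against 4.48 and 4.60 in wild-type mice 1 and 2, a difference of 0.11 ± 0.12 (SE) with an adjusted p of 0.887 by limma. Which exons are deleted is not stated, and other cells of the ear express the gene, so this value does not check the deletion.

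At their brightest probes, 0 of the 37 genes passed an adjusted p of 0.05 in limma's moderated test over all 23624 genes, in which 4 genes passed (0.0169%), 2 of them higher and 2 lower in the mutants (0.00847% each). With quantile normalization that split was 0 higher and 2 lower. The smallest adjusted p among the 37 was 0.386, for Mx2. At an unadjusted p under 0.05 there were 5 of the 37, of which 4 were higher in the mutants (Mx2, Rsad2, Ifit1 and Usp18) and 1 lower (Zbp1), against 6.51% of all genes, 2.96% higher and 3.55% lower. The median difference over the 37 genes was 0.08, against 0.01 over all genes tested, and 27 of the 37 were above 0, against 53.5% of all genes. In 11 of the 37 both mutant values lay above both wild-type values, against 18.9% of all genes, and in 3 they lay below, against 17.4%. With 2 mice a group, an exact permutation test of a single value cannot go below 0.333, so no gene could pass by that test.

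**Figure D1:**
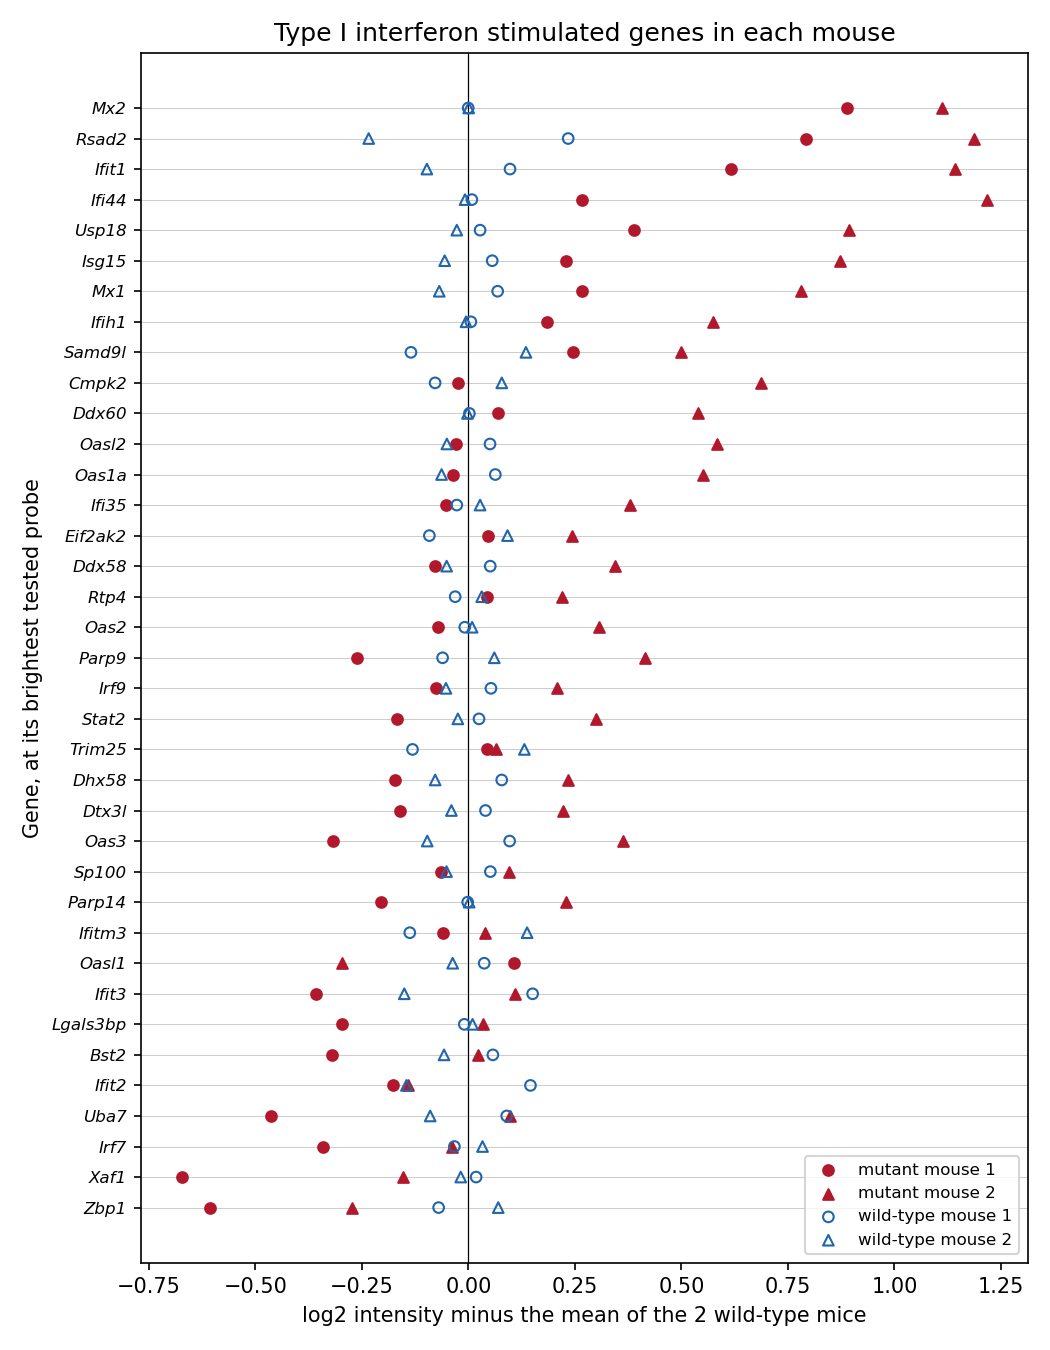
Log2 intensity of each of the 37 genes at its brightest tested probe, less the mean of the 2 wild-type mice, for mutant mice 1 and 2 (filled) and wild-type mice 1 and 2 (open). The upper 9 genes, Mx2 to Samd9l, have both mutant mice to the right of both wild-type mice, and the triangle of mutant mouse 2 lies to the right of the circle of mutant mouse 1 in 36 of the 37 genes.

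At the brightest probes, the largest differences were those of Mx2 and Rsad2, which are listed among the antiviral effectors. The array reads their RNA and not whether the proteins are active, and the strain of the mice is not given. Mx2, a dynamin-like GTPase related to the influenza resistance factor Mx1, stood at 0.51 and 0.73 in mutant mice 1 and 2 and at -0.38 in both wild-type mice. It was 2.00-fold higher in the mutants, with a log2 difference of 1.001 ± 0.13 (SE, 95% interval 0.67 to 1.33), an unadjusted p of 0.000795 and an adjusted p of 0.386 by limma. Its probe lies at chromosome 16, 97782327 to 97782386, on mouse build mm9. With eBayes run with trend and robust settings over all probes, Mx2 passed the threshold with an adjusted p of 0.0475, and in no other setting did it do so (adjusted p between 0.0780 and 0.787 over the other settings of the gene fit by limma).

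Rsad2 encodes viperin, which makes a chain-terminating nucleotide from CTP, and it stood at 0.93 and 1.32 in the mutants against 0.37 and -0.10 in the wild types. The groups did not overlap, and the log2 difference was 0.99 ± 0.23 (95% interval 0.38 to 1.596). Cmpk2, a mitochondrial nucleotide kinase whose gene neighbours Rsad2, stood at -0.73 and -0.02 in the mutants against -0.79 and -0.63 in the wild types, so that mutant mouse 2 alone was apart. Both probes of Cmpk2 gave a difference of the same sign, 0.33 and 0.21. Mx1 stood at 1.44 and 1.96 in the mutants against 1.25 and 1.11 in the wild types. Many laboratory strains carry a defective Mx1, and the array reads only its RNA. Samd9l, which restricts translation in poxvirus infection, stood at 2.45 and 2.70 in the mutants against 2.06 and 2.33 in the wild types, with differences of 0.37 and 0.38 at its 2 probes. Bst2, the tetherin that holds budding virions and a marker of plasmacytoid dendritic cells in mice, had a difference of -0.15 ± 0.16, and Ifitm3, which blocks the fusion of incoming virions, one of -0.01 ± 0.14. The groups of these last genes overlapped.

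Of the 3 IFIT genes, only Ifit1, whose protein binds viral RNA ends that lack cap methylation, was higher in both mutants than in both wild types. Ifit1 stood at 1.51 and 2.04 in the mutants against 0.99 and 0.80 in the wild types, a log2 difference of 0.88 ± 0.21 (95% interval 0.32 to 1.44) with an unadjusted p of 0.0112 and an adjusted p of 0.580 by limma. Ifit2 and Ifit3, whose genes lie beside it on chromosome 19, had differences of -0.16 ± 0.14 and -0.12 ± 0.21, and their groups overlapped. Each of these genes was read by 1 probe.

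The ISG15 system attaches the ubiquitin-like protein ISG15 to other proteins. Isg15 itself stood at 5.46 and 6.10 in the mutants, against 5.29 and 5.17 in the wild types. The differences at its 2 probes were 0.55 ± 0.24 and 0.50 ± 0.23, with no overlap between the groups at either. Usp18, the protease that removes ISG15 and restrains the receptor IFNAR, stood at 1.47 and 1.98 in the mutants against 1.11 and 1.06 in the wild types. Its difference was 0.64 ± 0.20, with an unadjusted p of 0.0261 and an adjusted p of 0.708 by limma. Uba7, the enzyme that activates ISG15, was lowest in mutant mouse 1. It stood at 2.33 and 2.90 in the mutants and at 2.89 and 2.71 in the wild types, a difference of -0.18 ± 0.22.

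Among the sensors of nucleic acid, Ifih1, which encodes the receptor MDA5 for long double-stranded RNA, stood at 2.14 and 2.53 in the mutants against 1.96 and 1.95 in the wild types. Zbp1, a sensor of Z-form nucleic acid that can start necroptosis, lay the opposite way. It stood at 2.09 and 2.42 in the mutants against 2.62 and 2.76 in the wild types, 1.36-fold higher in wild type, with a log2 difference of -0.44 ± 0.16 (95% interval -0.86 to -0.02), an unadjusted p of 0.0427 and an adjusted p of 0.749 by limma. Its 2 probes, at chromosome 2, 173039307 to 173039366 and 173032258 to 173032317 on mm9, gave -0.44 and -0.43. Ddx60, a helicase that assists RIG-I, had a difference of 0.31 ± 0.19 without overlap. Ddx58, which encodes RIG-I, Trim25, its ubiquitin ligase, and Dhx58, which encodes the regulator LGP2, had differences of 0.13 ± 0.18, 0.05 ± 0.13 and 0.03 ± 0.18, and their groups overlapped. That overlap was at the brightest probes. At the dimmer probes of Ddx58 and Trim25 the differences were 0.35 ± 0.13 and 0.29 ± 0.12, and both mutants lay above both wild types.

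The 2′-5′ oligoadenylate synthetases, which activate RNase L, and the kinase PKR, which stops translation, had the groups overlap at 6 of 6 genes. Over all genes tested, the groups overlapped at 15059 of 23624. The differences were 0.28 ± 0.23 for Oasl2, 0.26 ± 0.22 for Oas1a, 0.15 ± 0.14 for Eif2ak2, the gene of PKR, 0.12 ± 0.16 for Oas2, 0.02 ± 0.26 for Oas3 and -0.10 ± 0.17 for Oasl1. Oasl1, which in mice restrains the translation of Irf7, was the only 1 of the 37 genes with a lower value in mutant mouse 2 (1.26) than in mutant mouse 1 (1.66).

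The transcription factors of the pathway differed little. Stat2 and Irf9, which act together in the complex that binds the ISRE, had differences of 0.07 ± 0.19 and 0.07 ± 0.14. Irf7, which amplifies the production of interferon alpha, stood at 0.87 and 1.17 in the mutants against 1.18 and 1.25 in the wild types, with no overlap and a difference of -0.19 ± 0.14. Parp9, Parp14 and Dtx3l, ADP-ribosyltransferases and their ubiquitin ligase partner, which are encoded side by side on chromosome 16, had differences of 0.08 ± 0.25, 0.01 ± 0.18 and 0.03 ± 0.17. Of the remaining genes, Ifi44, a cytoplasmic protein of unsettled function, stood at 0.37 and 1.32 in the mutants against 0.11 and 0.09 in the wild types. Its difference was 0.74 ± 0.33, and 0.27 without mutant mouse 2. Rtp4 (0.13 ± 0.12) had higher values in both mutants. At the brightest probes, the groups overlapped for Ifi35 (0.16 ± 0.18), the nuclear body protein gene Sp100 (0.02 ± 0.12) and the secreted glycoprotein gene Lgals3bp (-0.13 ± 0.15). At the dimmer probe of Lgals3bp (-0.20 ± 0.14) both mutants lay below both wild types.

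The 2 mutant mice were not alike in these genes. Mutant mouse 2 had a higher value than mutant mouse 1 in 36 of the 37 genes, by a median of 0.41, against 52.1% of all genes and a median of 0.01. The wild-type mice differed by a median of -0.05 over the same genes, mouse 2 minus mouse 1, and mouse 2 was higher in 14 of the 37. The difference exceeded 0.25 in size in 30 genes between the mutants and in 6 genes between the wild types. Mutant mouse 2 had the highest value of the 4 mice in 28 of the 37 genes (75.7%), against 27.8% of all genes, and mutant mouse 1 in 1. Among the further lists below, the gap between the mutants was not particular to the 37 genes. Mutant mouse 2 lay above mutant mouse 1 in 12 of 15 interferon gamma axis genes (median 0.44) and 7 of 7 receptor and kinase genes (0.15). It did so in 24 of 33 other interferon stimulated genes (0.17), 7 of 12 inducers (0.02) and 4 of 9 ligands (-0.08). The genes of a list share their mice and arrays, so these counts describe the mice and are not a test.

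**Figure D2:**
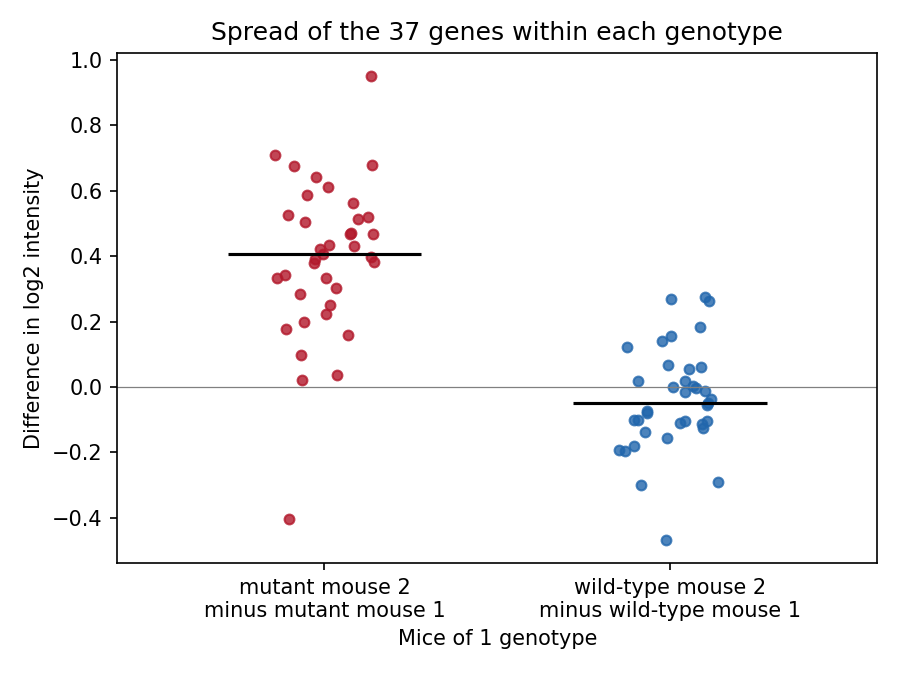
Difference in log2 intensity between the mice of the same genotype, mutant mouse 2 minus mutant mouse 1 on the left and wild-type mouse 2 minus wild-type mouse 1 on the right. Each point is 1 of the 37 genes and each bar a median, 0.41 for the mutants and -0.05 for the wild types.

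The comparison of the genotypes therefore depended on mutant mouse 2. Without it, the median difference over the 37 genes was -0.06 and 14 were above 0. Without mutant mouse 1 it was 0.30 and 32 were above 0. The differences of Mx2 (0.89 and 1.11 without mutant mice 2 and 1), Rsad2 (0.79 and 1.19), Ifit1 (0.62 and 1.14) and Usp18 (0.39 and 0.89) stayed above 0 either way. That of Zbp1 stayed below 0 (-0.61 and -0.27). None of the 37 genes passed the threshold at its brightest probe with any mouse left out.

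Xaf1, which encodes an interferon-induced partner of the apoptosis inhibitor XIAP, was the exception among the 51 probes. In a fit over all 33664 probes, 7 passed an adjusted p of 0.05 (0.0208%), and 1 of them was a probe of Xaf1. The downstream probe, at chromosome 11, 72127175 to 72127234 on mm9, stood at 2.75 and 3.30 in mutant mice 1 and 2 against -2.37 and -2.39 in wild-type mice 1 and 2. It was 42.4-fold higher in the mutants, with a log2 difference of 5.41 ± 0.21 (95% interval 4.84 to 5.97) and an adjusted p of 0.0298 by limma. The upstream probe, 5006 bases away at 72122169 to 72122228, stood at 1.49 and 2.01 in the mutants against 2.18 and 2.15 in the wild types, a difference of -0.41 ± 0.20 in the other direction. This upstream probe is the brighter one and stood for the gene in the counts above. With the mean of both probes in its place, the difference of Xaf1 was 2.50 (adjusted p = 0.267 by limma).

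Both Xaf1 probes were well above background on all 4 arrays, and neither spot was an outlier or lay in the dark patch. The raw mean signal of the downstream spot was 4086 and 5748 in the mutants against 147 and 141 in the wild types, over a local background of 13 to 16. That of the upstream spot was 1878 and 2621 in the mutants against 3333 and 3013 in the wild types. Among the 6770 genes with more than 1 tested probe, 2 genes (0.0295%), Xaf1 included, had probes whose differences lay at least 5.82 apart. The probes read separate sequences, and a stretch of 30 bases is printed for each because the downstream one holds AATAAA, the letters of the polyadenylation signal (in capitals), which stand in 10.1% of the 55681 probes, and the upstream one does not.
Xaf1 upstream probe, bases 1 to 30 of 60: ccttcaacccttgcatttatggactctgga
Xaf1 downstream probe, bases 27 to 56 of 60: atttggctccaaAATAAActtatctctgca

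**Figure D3:**
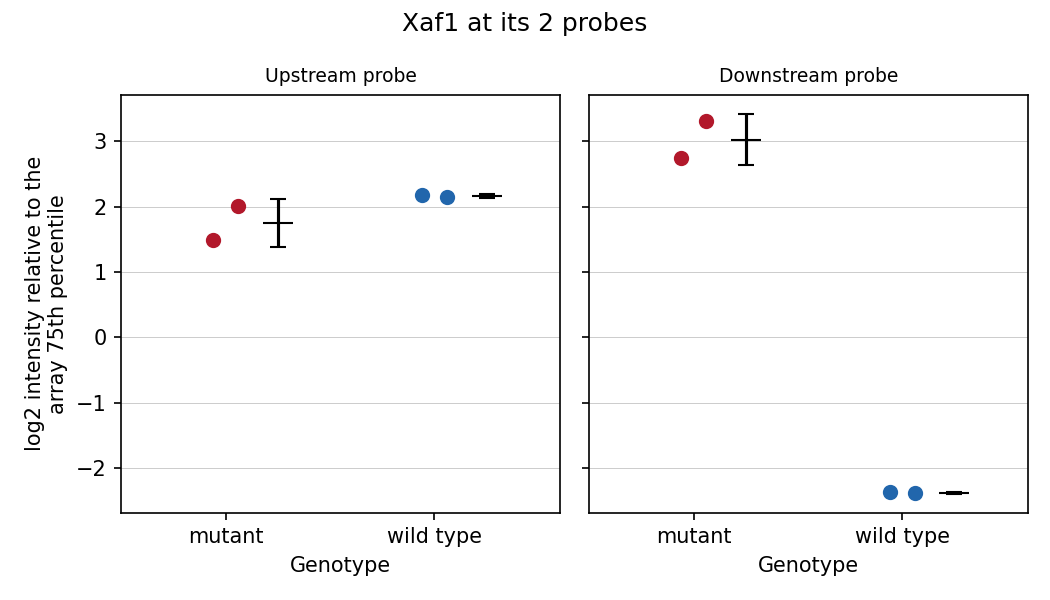
Xaf1 at its upstream probe (left) and its downstream probe (right), as log2 intensity scaled to the 75th percentile of its array, with 1 point for each mouse and the mean ± SD of 2 mice beside them. The downstream probe lies at 2.75 and 3.30 in the mutants and -2.37 and -2.39 in the wild types, while the upstream probe lies slightly lower in the mutants.

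The call at the downstream probe was lost without wild-type mouse 1 (adjusted p = 0.280 by limma), without wild-type mouse 2 (0.237) with no filter on dim probes (0.194), with the replicate number as a block (0.165) and with the crossed block (0.0650), though the log2 difference stayed between 5.13 and 5.68 with any mouse left out. No annotation of exons was used, so whether the probes read different transcripts of Xaf1 was not tested, nor was whether the mice differ in sequence there. Within 1 Mb of Xaf1, 33 other genes were tested and 0 passed the threshold by limma, with 2 at an unadjusted p under 0.05, Slc13a5 (0.53 ± 0.11) and Tekt1 (-0.53 ± 0.15). Those 2 genes were named after their values were seen. At 10 of the 33 both mutant values lay above both wild-type values, and at 2 below, against 18.9% and 17.4% of all genes. On the same chromosome, 2 of the 4 genes that passed over all genes, Fam183b and the transcript 2610507I01Rik, also named after their values were seen, lie at 58606357 and 59011304.

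For the other 12 genes with more than 1 tested probe, the probes lay within 0.51 of each other, with the largest gap at Sp100 (0.02 and 0.52) and the next at Trim25 (0.05 and 0.29). The dimmer probe of Sp100 was well above background in only 1 of the wild-type mice, and both mutants lay above both wild types there. The probes of Dtx3l did not share a sign (0.03 ± 0.17, 0.02 ± 0.27 and -0.14 ± 0.13). At the last of these, both mutants lay below both wild types. At the dimmer probe of Ifih1 (0.19 ± 0.35) the groups overlapped.

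The rest of the interferon pathway was taken from lists of ligands, receptors, inducers and further target genes. At an adjusted p of 0.05, 0 genes of any of these lists passed limma's test. Other interferon stimulated genes outside the 37 had a median difference of -0.08 over 33 tested genes, with 9 above 0 and 24 below, and with both mutants higher at 4 and lower at 7, against 18.9% and 17.4% of all genes. The direction depended on the mutant mice: the median was 0.05 without mutant mouse 1 and -0.15 without mutant mouse 2. The lowest was Slfn1, a schlafen gene that restrains the division of T cells, at -2.24 and -2.29 in the mutants against -1.48 and -1.54 in the wild types (-0.76 ± 0.10, unadjusted p = 0.00121 and adjusted p = 0.386 by limma). Tor3a, a torsin ATPase, stood at 1.45 and 1.44 in the mutants against 1.71 and 1.78 in the wild types (-0.30 ± 0.10). Without mutant mouse 2 the difference was also -0.30. Its probe has a spot in the dark patch of the array of mutant mouse 2. With the spots of the patch left out on every array, other spots stood for the gene and the difference was 0.09.

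Of 14 ligand genes on the array, 9 were tested and 5 were too dim, among them Ifnb1 and Ifne. Those tested had a median difference of -0.07, with both mutants lower at 2 and higher at 0, against 17.4% and 18.9% of all genes. Ifnk, the interferon of keratinocytes, stood at -4.67 and -3.99 in the mutants against -4.01 and -3.85 in the wild types, and Ifna14 at -2.40 and -2.68 in the mutants against -2.92 and -2.62 in the wild types, so that the groups overlapped for both. Probes of the interferon alpha genes can share sequence, so which of these near-identical genes they read is uncertain.

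The receptor chains, kinases and SOCS1 had a median difference of -0.12 over 7 genes. Tyk2, the kinase bound to IFNAR1, stood at 0.12 and 0.35 in the mutants against 0.54 and 0.56 in the wild types (-0.32 ± 0.13), and the receptor gene Ifnar2 at 1.41 and 1.56 in the mutants against 1.65 and 1.73 in the wild types (-0.21 ± 0.12). The genes that sense nucleic acid upstream of interferon or carry that signal had a median of -0.12 over 12 genes, with both mutants lower at 7 (17.4% of all genes) and higher at 1 (18.9% of all genes). Irf5, a transcription factor downstream of Toll-like receptors, had -0.39 ± 0.11 (unadjusted p = 0.0176) and Ticam1, the adaptor of TLR3, -0.29 ± 0.10 (unadjusted p = 0.0388), with adjusted p of 0.658 and 0.740 by limma.

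Genes of the interferon gamma axis had the lowest median of these lists, -0.37 over 15 genes, with both mutants lower at 8 and higher at 1, against 17.4% and 18.9% of all genes. The median was -0.14 without mutant mouse 1 and -0.57 without mutant mouse 2. Ubd, a ubiquitin-like protein induced by interferon gamma, stood at -1.13 and -0.93 in the mutants against 0.66 and 0.13 in the wild types (-1.42 ± 0.21, unadjusted p = 0.00166 and adjusted p = 0.393 by limma). Gbp2 and Gbp3, guanylate-binding proteins, had -0.87 ± 0.25 and -0.58 ± 0.19, with adjusted p of 0.670 and 0.725 by limma. Mutant mouse 2 was the highest of the 4 mice in 1 of these 15 genes, against 28 of the 37 type I genes, and it lay above mutant mouse 1 in 12 of the 15. Whether the type I and the interferon gamma genes differ from each other was not tested.

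**Figure D4:**
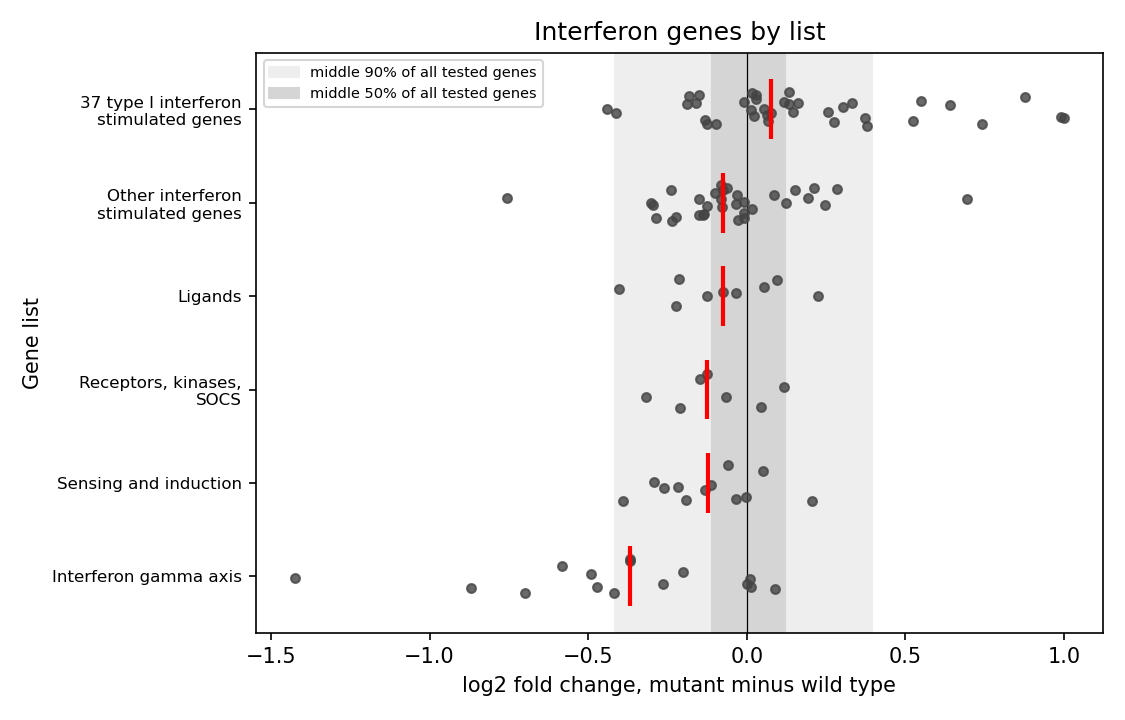
Log2 fold change, mutant minus wild type, of each tested gene by list, with the list's median as a red bar and the central ranges of all tested genes shaded. The 37 genes have a median of 0.08 and reach 1.001, and the interferon gamma axis has a median of -0.37 and reaches -1.42.

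Markers of the cell types an ear can hold were read beside these values, as the sum over a list of the linear level relative to the array's 75th percentile. Those of plasmacytoid dendritic cells, which make much interferon, summed to 224 and 200 in the mutants against 209 and 215 in the wild types, and those of keratinocytes to 1124 and 1223 in the mutants against 985 and 1166 in the wild types. These sums overlapped between the groups for both lists. Siglech was by far the brightest of the plasmacytoid markers and set most of their sum. By gene, 5 of those 6 markers were below 0, with a median of -0.18. Both mutants were lower at 2 of them, against 17.4% of all genes. Other cells of the ear may express some of these markers, which was not tested, so they do not measure plasmacytoid dendritic cells alone. Of the keratinocyte markers, 5 of 6 were above 0. Markers of monocytes and macrophages summed to 211 and 210 in the mutants against 227 and 239 in the wild types. T cell markers summed to 14.5 and 16.3 in the mutants against 18.8 and 16.1 in the wild types. Of these markers, 7 of 7 were below 0, against 10978 of all 23624 genes. Both mutants were lower at 2, against 17.4% of all genes. Those of natural killer and cytotoxic cells summed to 8.03 and 10.1 in the mutants against 16.2 and 11.04 in the wild types. Summed levels lay lower in both mutants than in both wild types for 6 of 18 lists, where 17.4% of single genes did so. The 6 lists were monocytes and macrophages, natural killer cells, B cells, neutrophils, fibroblasts and adipocytes. Each sum is weighted towards the brightest genes of its list, such as Csf3r for neutrophils and Ly6c1 for monocytes and macrophages. By gene, 3 of 6 neutrophil, 2 of 4 fibroblast and 3 of 8 monocyte and macrophage markers were above 0. All tested natural killer, B cell and adipocyte markers were below 0, against 10978 of all 23624 genes. Eosinophil markers were higher in both mutants and highest in mutant mouse 2 (0.486 and 0.695 in the mutants against 0.336 and 0.300 in the wild types, at 3 of 5 listed genes). Of these, Prg2 was well above background in only 1 of the wild-type mice. Melanocyte markers were higher in both mutants and highest in mutant mouse 2 as well (11.9 and 14.6 in the mutants against 6.36 and 5.75 in the wild types, at 4 of 4). Schwann cell markers also summed higher in both mutants (9.08 and 9.33 in the mutants against 8.68 and 8.96 in the wild types). By gene, both mutants were higher at 3 of 3 tested eosinophil, 4 of 4 melanocyte and 0 of 3 Schwann cell markers, against 18.9% of all genes. Among the defining markers, Epx of eosinophils, Ms4a1 of B cells, Xcr1 of dendritic cells and Ngp of neutrophils were too dim to test. The part of any of these cell types in the values of the 37 genes was not tested.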

How the data were processed

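RNA of 4 ears was read on 1-colour mouse microarrays. The deposited scanner files hold intensities per spot with quality flags from Agilent Feature Extraction 10.7.3.1, which had subtracted the background, per the file headers. The deposited series table holds a linear ratio of the same signals to each array's median, found by comparison with the scanner intensities, and served as an alternative. The coordinates of probes are those of the file headers (mm9). From the processed signal, log2 was taken and each array's 75th percentile subtracted. Control and outlier spots were left out (59305 spots are no controls), spots of a probe were averaged, and a probe entered the tests if both mice of either group had it well above background. A gene was represented by its brightest tested probe, and a second fit kept every probe. Differences were tested with limma 3.58.1 (lmFit and eBayes, R 4.3.3) and Benjamini-Hochberg adjustment over all genes or probes, and ± is the SE with 2 residual degrees of freedom plus 2.5 from the prior. The median SE was 0.133, and the number of arrays limits the precision. The fit was tested on simulated data. Promoters and their motifs were read from RefSeq GRCm38.p6 with Python 3.11.15. The labels do not say what the mouse numbers mean. The p-values set the difference between genotypes against the spread between mice of a genotype, moderated with the spread over all genes or probes.

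The 37 genes and all lists were chosen with earlier results of these data known, and 1 gene of a further list is not reported here. Named genes are all of the 37, Rela and, from each further list, those with an unadjusted p under 0.05 or up to 4 with the largest difference. The alternatives were normexp background correction, quantile normalization, other centrings, the series table, 2 other filters on dim probes, the mean of probes, eBayes with trend and robust settings, the replicate number as a block, the dark patch left out and each mouse left out in turn.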

Additional observations from a re-analysis of the deposited data

How the results depend on the processing

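Of 784 values of 49 named genes under the other settings, 35 changed sign, 27 of them on leaving out a mouse and 15 of those without mutant mouse 2. None of the genes that changed sign was called. Leaving out 1 mouse at a time, with a lone mouse of a group taken to vary like the other group, gave these ranges of the log2 difference for the genes that changed sign: Cmpk2 (-0.025 to 0.69), Oasl2 (-0.029 to 0.58), Oas1a (-0.035 to 0.55), Ifi35 (-0.053 to 0.38), Ddx58 (-0.078 to 0.34), Oas2 (-0.071 to 0.31) and Parp9 (-0.26 to 0.41). The ranges of the next were Irf9 (-0.075 to 0.21), Stat2 (-0.17 to 0.30), Trim25 (-0.077 to 0.19), Dhx58 (-0.17 to 0.23), Dtx3l (-0.16 to 0.22), Oas3 (-0.32 to 0.36) and Sp100 (-0.064 to 0.096). For the rest they were Parp14 (-0.20 to 0.23), Ifitm3 (-0.15 to 0.13), Oasl1 (-0.30 to 0.11), Ifit3 (-0.36 to 0.11), Lgals3bp (-0.30 to 0.035), Bst2 (-0.32 to 0.022) and Uba7 (-0.46 to 0.098). Other settings turned the sign of Oas3 with normexp (-0.0025), Parp14 with quantile normalization (-0.024) and the percentile over detected probes (-0.0015), Ifitm3 with median centring and the series table (0.0046 in both), Dtx3l and Xaf1 with the mean of probes (-0.033 and 2.50) and Tor3a with the dark patch left out (0.088). The median over the 37 genes ran from -0.059 without mutant mouse 2 to 0.30 without mutant mouse 1, and in the fit over genes 0 of the 37 were called in any setting with 1 probe or the mean of probes for each gene. Genes called over the whole array, 2 higher and 2 lower, became 0 and 2 with quantile normalization and with the percentile over detected probes. They became 0 and 1 without the dim-probe filter and with probes above background on all 4 arrays, and 8 and 6 with trend and robust settings. With each mouse left out they ran from 0 to 23 higher and 0 to 58 lower, the highest without mutant mouse 1. With every probe as its own row, 4 were higher and 1 was a probe of the 37 genes, that of Xaf1. Of all probes, 7 passed, against 1 with no filter, 2 with the stricter filter, 35 with trend and robust settings and 0 to 177 with a mouse left out. Probes of the 37 genes that passed numbered 0 with no filter, 2 with trend and robust settings and 0 to 1 with a mouse left out. With the replicate number as a block, 0 genes were higher and 1 lower, 1 probe passed and 0 of those of the 37 genes did, with an adjusted p of 0.165 by limma at the downstream Xaf1 probe. Mice of the same number deviated in opposite directions (r = -0.195), and the crossed pairing, chosen after seeing the data, gave 0 higher and 1 lower gene, 1 probe and 0 probes of the 37 genes. The cause of these changes was not tested, and 2 mice a group limit every comparison.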
